A study of Mus musculus with 7 samples.

Results

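Dnase1l3 and 4 other genes of enzymes that break down or limit DNA, Dnase1l1, Dnase2a, Trex1 and Samhd1, were described in macrophages of mouse tumors with and without Dicer1. They are 5 of the 24084 genes listed in the deposited tables. The set was built around Dnase1l3, which was chosen by its higher read counts in Dicer1-deleted than in control libraries, and the other members were picked for their function. The macrophages were sorted as F4/80+ cells from Lewis lung carcinomas, which grow from a mouse lung cancer line placed under the skin. In 3 libraries, called Dicer1-deleted here, the mice were LysM-Cre;Dicer-/- (D-/-), with a homozygous floxed Dicer1 gene. The 4 control libraries came from LysM-Cre; Dicer+/+ mice (D+/+). Mice of both groups carried LysM-Cre on both copies of the lysozyme M locus, from which the Cre recombinase is expressed in myeloid cells, neutrophils included. The labels give no age, strain or sex, and they do not say whether a library is 1 mouse or a pool, so a p-value here reflects only variation among the libraries sequenced, which may be technical. The study asked how loss of DICER, the ribonuclease that makes mature microRNAs, alters tumor macrophages.

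Mammalian cells keep DNA in the wrong place at a low level with a set of nucleases that divide the work by compartment. DNase1L3 is secreted, mainly by macrophages and dendritic cells, and digests chromatin released from dying cells, including DNA carried in membrane vesicles. DNase II, the product of Dnase2a, degrades the DNA of engulfed cells in lysosomes, TREX1 is a DNA exonuclease of the cytosol, and SAMHD1 hydrolyzes deoxynucleotides and so limits DNA synthesis by retroviruses in myeloid cells. In humans, loss of DNASE1L3 causes a form of lupus, and loss of TREX1 or SAMHD1 causes Aicardi-Goutieres syndrome, a disease with persistent type I interferon signaling.

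The libraries held 44566688 to 46986326 uniquely placed reads in the Dicer1-deleted group and 42974524 to 51152370 in the control group, with both mates of a pair counted. Dicer1 averaged 7.52 ± 0.572 CPM (unique read counts scaled for library size) in Dicer1-deleted libraries and 16.8 ± 1.35 CPM in control libraries (SD, n = 3 and 4), without overlap. It was lower by DESeq2 (adjusted p = 0.000133) and missed the threshold in edgeR (adjusted p = 0.150). This is a weak check of the labels, because the floxed allele loses only part of the gene. Dicer1-deleted replicate 2 stood apart from the others. Its median root-mean-square distance to the other libraries was 1.40 on the log2 CPM scale, against 1.05 to 1.22 for the other 6, and the fewest genes were detected in it (17930). In every library the macrophage genes Adgre1 (F4/80), Csf1r, Cd68 and Mertk were present, and the summed level of 10 macrophage markers was 8869.7 to 13419 CPM in Dicer1-deleted libraries, against 10816 to 13283 CPM in control libraries. Of the 10, Lyz2, the gene at the locus that carries Cre in both groups, averaged 57.0 CPM in Dicer1-deleted libraries, against 139 CPM in control libraries, and Cd14 averaged 3138 CPM in Dicer1-deleted libraries, against 4428 CPM in control libraries. Both were lower without overlap, as were 5.44% of all genes tested. Lyz2 fell in DESeq2 (adjusted p = 0.0175), as did 1.41% of all genes, but neither passed in edgeR (adjusted p = 0.235 for Lyz2 and 0.764 for Cd14).

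Dnase1l3 was high in all Dicer1-deleted libraries and low in all control libraries. It had 328, 153 and 268 CPM in Dicer1-deleted replicates 1, 2 and 3, against 8.97, 6.06, 2.55 and 22.2 CPM in control replicates 1 to 4. The lowest Dicer1-deleted library was 6.88-fold above the highest control library. The gene was chosen for this difference, so the values are a description and no test of them is given. Over all 16226 genes tested, 627 (3.86%) were likewise free of overlap and higher after deletion. The means were 249.5 ± 88.7 CPM in Dicer1-deleted libraries, against 9.96 ± 8.60 CPM in control libraries (SD, n = 3 and 4), a 25.1-fold ratio and a fitted log2 fold change of 4.65 ± 0.68 (SE). Control libraries differed among themselves by up to 8.72-fold and Dicer1-deleted libraries by up to 2.14-fold. In bulk RNA, fewer cells of a type and less RNA per cell cannot be told apart.

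**Figure D1:**
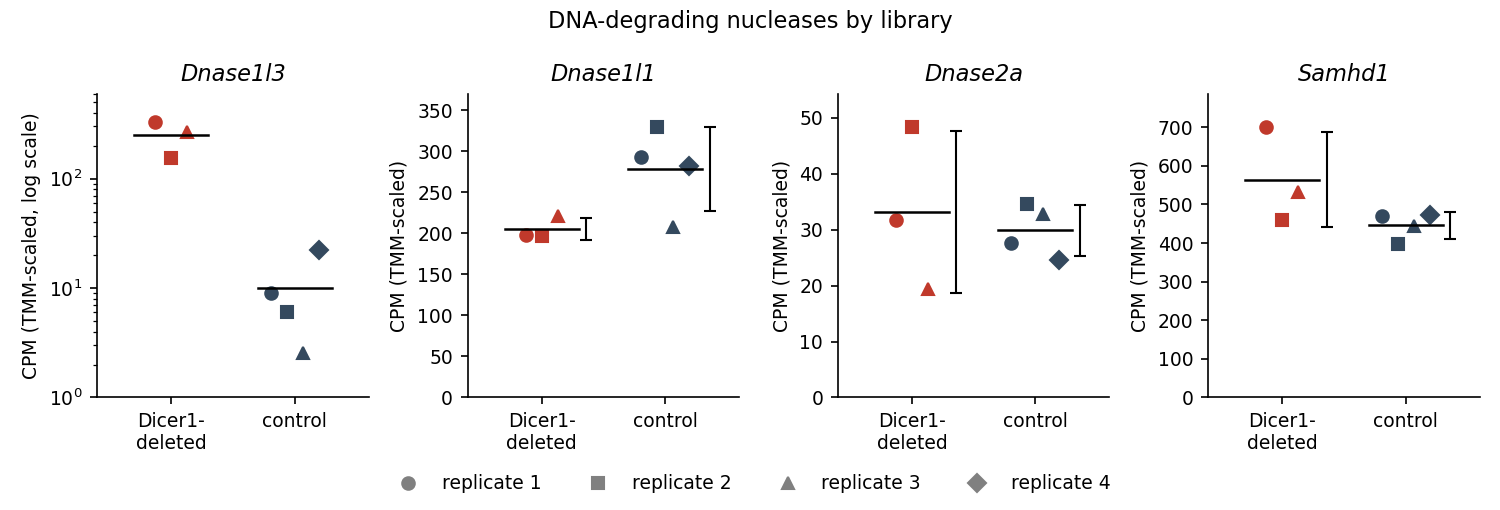
CPM of Dnase1l3 (log axis), Dnase1l1, Dnase2a and Samhd1 (linear axes from 0) in 3 Dicer1-deleted and 4 control libraries. Points are libraries, horizontal lines are means and bars beside them are SD (not drawn on the log axis). For Dnase1l3 the groups are separated by a gap, from 22.2 to 153 CPM, whereas the groups overlap for the other 3 genes.

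The titles carry a code, L4 or L5, whose meaning the labels do not give and which occurs in both groups. Among L4 libraries Dnase1l3 averaged 210.5 CPM in the 2 Dicer1-deleted libraries and 6.06 CPM in the 1 control library. Among L5 libraries it was 328 CPM in the 1 Dicer1-deleted library and averaged 11.3 CPM in the 3 control libraries. The ratio was 34.7-fold within L4 and 29.1-fold within L5. Leaving out any 1 library gave log2 fold changes between 4.33 and 5.41, and without Dicer1-deleted replicate 2 it was 4.89.

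Dnase1l3 lies on the minus strand of chromosome 14, at 7964533 to 7994573 of GRCm38, with 9 merged exons and no overlapping annotated gene. Its reads were nearly all uniquely placed, with at most 3.90 reads per library shared with other genes. Of the genes nearby, Abhd6, which encodes a lipase, lies 8.33 kb away and averaged 3.05 CPM in Dicer1-deleted libraries, against 2.95 CPM in control libraries (edgeR adjusted p = 0.999). Rpp14 and Pdhb, at 85.8 kb and 171 kb, were lower in all Dicer1-deleted libraries than in any control library, as were 883 genes tested (5.44%), with log2 fold changes of -0.57 and -0.53 that did not pass (edgeR adjusted p = 0.695 and 0.732). These neighbors were chosen outside the rule for named genes, Abhd6 by position and Rpp14 and Pdhb after their values were seen.

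Levels of different genes were compared per length, with the RPKM values (reads per kilobase, scaled for depth) of the deposited tables. Dnase1l3 averaged 47.3 ± 20.05 RPKM in Dicer1-deleted and 1.91 ± 1.66 RPKM in control libraries (SD, n = 3 and 4). In Dicer1-deleted libraries its RPKM was above that of 85.5% to 92.1% of genes with any reads, against 28.0% to 59.4% in control libraries. Trex1 had no unique reads and was left out of the order of the members. Among the other 4 members the order was the same in all 3 Dicer1-deleted libraries, with Dnase1l1 highest, then Samhd1, Dnase1l3 and Dnase2a. In all 4 control libraries Dnase2a stood above Dnase1l3, although in control replicate 4 the values were close, at 4.53 RPKM for Dnase2a and 4.29 RPKM for Dnase1l3. With CPM per kilobase of annotated exon in place of RPKM the order was the same in all 7 libraries.

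Among the 4 genes of the DNase I family, Dnase1l3 made up 40.4%, 24.0% and 33.0% of the summed RPKM in Dicer1-deleted replicates 1, 2 and 3. In control replicates 1 to 4 it made up 1.25%, 0.75%, 0.501% and 3.13%. Nearly all of the remainder was Dnase1l1. Dnase1, the secreted enzyme of digestive glands and kidney, and Dnase1l2, an enzyme of skin, stayed under 1 RPKM in all 7 libraries, with means of 0.41 and 0.37 RPKM in Dicer1-deleted libraries and 0.188 and 0.435 RPKM in control libraries. Even so, Dnase1 had 1.12, 1.07 and 1.75 CPM in Dicer1-deleted libraries, above the 0.21, 0.224, 0.875 and 0.957 CPM of control libraries. Over all genes tested, 3.86% were likewise higher without overlap. The log2 fold change of Dnase1, 1.21 ± 0.67 (SE), did not pass (edgeR adjusted p = 0.776).

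**Figure D2:**
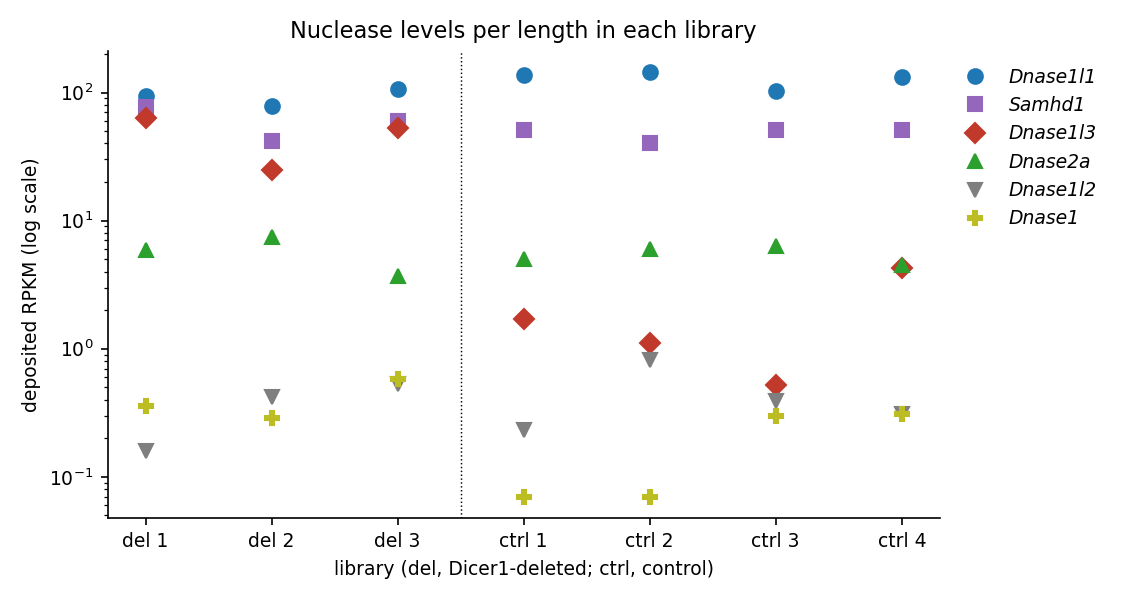
Deposited RPKM (log axis) of the DNase I family genes Dnase1, Dnase1l1, Dnase1l2 and Dnase1l3, with Samhd1 and Dnase2a, in each library, Dicer1-deleted left of the dotted line and control right of it. Dnase1l3 moves between the groups, from 24.9 to 63.6 RPKM in Dicer1-deleted and from 0.52 to 4.29 RPKM in control libraries, while Dnase1l1 is the highest of the 6 genes in every library.

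Dnase1l1, Dnase2a and Samhd1 did not pass an adjusted p of 0.05 in edgeR. Dnase1l3 is not counted here, because no test of it is given. Of 16226 genes, 4 (0.0247%) passed that threshold, 1 of them higher (0.00616%) and 3 lower (0.0185%). None of the 3 members passed at an unadjusted p under 0.05 or in DESeq2, where 1300 genes (8.01%) and 397 genes (2.19% of those with an adjusted p) did. Of the DESeq2 calls, 0.777% of genes were higher and 1.41% lower. These members were chosen with results of these data known, and a p above the threshold does not show that levels were equal.

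Dnase1l1 encodes a membrane-anchored relative of DNase1L3 and, by RPKM but not by CPM, was the highest nuclease of the family in all libraries. It had 198, 197 and 221 CPM in Dicer1-deleted libraries, against 293, 329, 208 and 282 CPM in control libraries. Dicer1-deleted libraries were close together and below 3 of the 4 control libraries, and control replicate 3 fell between them. The means were 205 ± 13.7 CPM in Dicer1-deleted libraries, against 278 ± 50.6 CPM in control libraries (SD, n = 3 and 4), with a fitted change of -0.43 ± 0.26 on the log2 scale (SE, edgeR adjusted p = 0.813). The sign was therefore opposite to that of Dnase1l3, and every alternative fit kept it, with values from -0.55 to -0.33. Dnase1l1 lies on the minus strand of chromosome X at 74273217 to 74282337 and overlaps Taz on the other strand, without sharing exon bases.

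Dnase2a, the lysosomal endonuclease, had 31.7, 48.3 and 19.4 CPM in Dicer1-deleted libraries, against 27.6, 34.5, 32.8 and 24.5 CPM in control libraries. The Dicer1-deleted libraries held both the highest value, in replicate 2, and the lowest, in replicate 3. The means were 33.1 ± 14.5 CPM in Dicer1-deleted libraries, against 29.9 ± 4.62 CPM in control libraries (SD, n = 3 and 4). The log2 fold change of 0.15 ± 0.32 (SE) did not pass (edgeR adjusted p = 0.996), and it was -0.23 without Dicer1-deleted replicate 2. Dnase2a lies on the plus strand of chromosome 8 at 84908560 to 84922915. It shares 1616 exon bases with Mast1 on the other strand, which these unstranded libraries do not separate, and reads assigned to Mast1 averaged 0.482 CPM.

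Samhd1 had the most reads of the 5 members in all 7 libraries. It had 700.1, 461 and 533 CPM in Dicer1-deleted libraries, against 469.7, 397, 445 and 473 CPM in control libraries. Dicer1-deleted replicates 1 and 3 lay above all control libraries, and replicate 2 lay among them. The means were 565 ± 123 CPM in Dicer1-deleted libraries, against 446 ± 35.1 CPM in control libraries (SD, n = 3 and 4), with a fitted change of 0.34 ± 0.26 on the log2 scale (SE, edgeR adjusted p = 0.939). Without Dicer1-deleted replicate 1 it was 0.15. Samhd1 lies on the minus strand of chromosome 2 at 157097533 to 157135265, with no overlapping annotated gene.

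Trex1 was listed with 0 uniquely placed reads in all 7 libraries, but these tables cannot show its level. All 1147 exon bases of Trex1, on the minus strand of chromosome 9 at 109057933 to 109059734, also belong to Atrip, a gene of the DNA damage checkpoint annotated on the same strand from 109057933 to 109074124. With this annotation a read from Trex1 is never unique to it. The annotation behind the tables may differ at Atrip, whose RPKM values imply 5.21 to 5.27 kb of exon against 7.15 kb here. Reads shared between genes were divided in the expected counts, and nearly all went to Atrip. Atrip received 1874, 3418 and 1595 shared reads in Dicer1-deleted libraries and 2335, 1899, 2122 and 1753 in control libraries, whereas Trex1 received between 2.44 and 10.7.

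The reads shared by both genes amounted, scaled to CPM of uniquely placed reads without TMM, to 39.9, 75.6 and 35.9 in Dicer1-deleted libraries, against 49.7, 41.0, 41.5 and 40.9 in control libraries. Dicer1-deleted replicate 2 was the highest, and the other 2 Dicer1-deleted libraries were below all control libraries. If all of these reads lay on the Trex1 exons, reads per kilobase there exceeded those on the rest of Atrip 13.6-, 56.4- and 16.0-fold in Dicer1-deleted libraries and 20.2-, 12.9-, 13.5- and 15.5-fold in control libraries. Reads placed at several sites of the genome could be among them. With both genes summed into 1 row of expected counts, a choice made after seeing the data, the difference was 0.18 ± 0.29 on the log2 scale (SE, edgeR adjusted p = 0.996). Of 15279 protein-coding genes listed, 123 had shared reads but no unique read in any library.

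**Figure D3:**
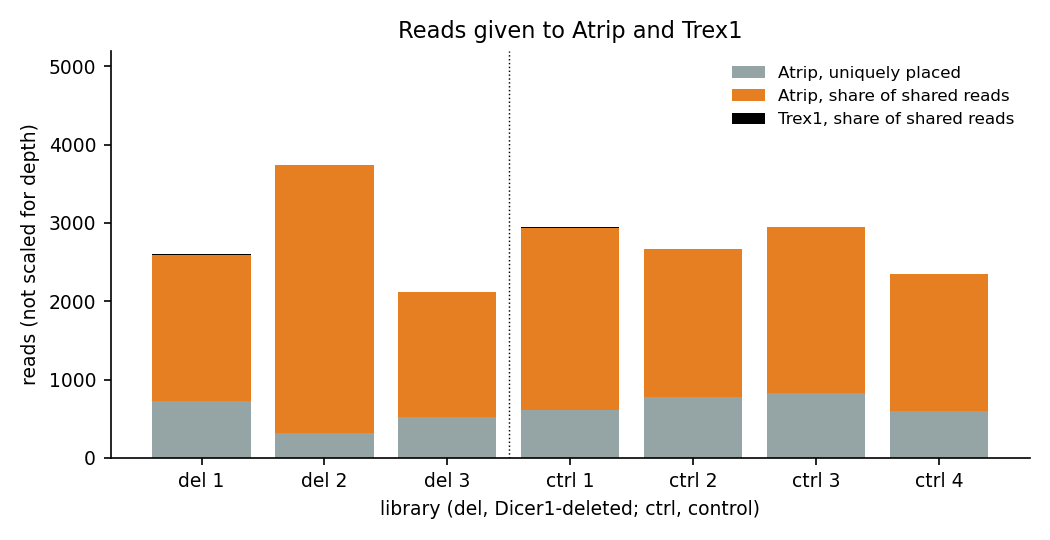
Reads assigned to Atrip and Trex1 in each library, unscaled, as Atrip's unique reads, Atrip's portion of shared reads and Trex1's portion, with Dicer1-deleted libraries left of the dotted line and control libraries right of it. Shared reads form most of every column and Trex1's portion, at most 10.7 reads, is too small to see.

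Because the mice differ in the enzyme that makes microRNAs, the 3' UTRs of the members were searched for matches to the seeds (bases 2 to 8) of 10 microRNAs known from myeloid cells. MicroRNA levels were not measured. The longest annotated 3' UTR of each gene was read on its sense strand. The 3' UTR of Dnase1l3 is 3226 bases long and held none of the 10 sites, which was also true of 6.33% of 1421 tested genes with a 3' UTR within 20% of that length. Dnase1l1 (352 bases) and Trex1 (44 bases) held none either, as did 71.2% and 95.3% of 3' UTRs of like length. Samhd1 held a match for miR-155-5p, as did 10.3% of 1861 3' UTRs of like length, and Dnase2a held matches for miR-24-3p (10.6% of 1342) and miR-34a-5p (9.17%). The mature sequences, from RefSeq (GRCm38.p6), are shown for these and for let-7a-5p, a family abundant in macrophages that matched no member, with the seed in capitals.
let-7a-5p: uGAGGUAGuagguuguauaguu
miR-155-5p: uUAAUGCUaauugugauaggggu
miR-24-3p: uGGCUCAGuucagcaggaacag
miR-34a-5p: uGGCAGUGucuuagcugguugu
The stretches around the matches come from the GENCODE transcripts (GRCm38), with the site in capitals. The sites begin at base 560 of the Samhd1 3' UTR and, for miR-24-3p and miR-34a-5p, at bases 517 and 264 of the Dnase2a 3' UTR.
Samhd1, miR-155-5p site: atgctgtaagaAGCATTAtctggtgtatt
Dnase2a, miR-24-3p site: gtacagtgctgCTGAGCCacactccctgt
Dnase2a, miR-34a-5p site: gcatgcgccacCACTGCCcggctcaggtg
The other motifs searched were CTACCTC for let-7a-5p, ATAAGCT for miR-21a-5p, AATGTGA for miR-23a-3p, CTCAGGG for miR-125b-5p, ACACTAC for miR-142a-3p, AGTTCTC for miR-146a-5p and AACTGAC for miR-223-3p. A match is a description of the letters and not evidence of binding. Neither gene with a match passed the test between groups.

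Of a list of 23 further DNA nucleases, 21 were tested and none passed in edgeR or DESeq2 or at an unadjusted p under 0.05. They had 10 log2 fold changes above 0 and 11 below, a median of -0.03, and values from -0.48 to 1.21. Over all genes tested the median was 0.03 and 52.6% were above 0. The most abundant of the list were Pld4 and Pld3, exonucleases that degrade single-stranded DNA in endolysosomes. Pld4 had 900.4, 762 and 772 CPM in Dicer1-deleted libraries, against 864, 909.6, 509 and 834 CPM in control libraries, with overlapping groups. Pld3 averaged 327 ± 65.1 CPM in Dicer1-deleted libraries, against 457 ± 103 CPM in control libraries (SD, n = 3 and 4), or -0.48 ± 0.29 (SE) on the log2 scale. Dna2, a helicase and nuclease of DNA repair, had 0.60 ± 0.40, and Nme1, a nucleotide kinase with exonuclease activity, had -0.03 ± 0.38. Dnase2b and Trex2 had no reads listed.

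Of 18 tested genes linked to DNA sensing, which are not all sensors, 16 had a log2 fold change above 0, against 52.6% of all genes. Their median was 0.32, against 0.03. None passed in edgeR, 4 had an unadjusted p under 0.05 (8.01% of all genes), and 1, Tlr9, rose in DESeq2 (0.777% of all genes). In 3 of the 18, Tlr9 included, Dicer1-deleted libraries were higher without overlap (3.86% of all genes). Tlr9 encodes the endosomal receptor for DNA rich in unmethylated CpG. It had 6.64, 4.37 and 8.32 CPM in Dicer1-deleted libraries, against 1.30, 1.75, 1.90 and 0.775 CPM in control libraries, so that the groups did not overlap. The log2 fold change was 2.17 ± 0.40 (SE), with an adjusted p of 0.116 in edgeR and 7.95e-05 in DESeq2. Tlr9 is therefore a low-level transcript whose call depends on the tool. Unc93b1, which carries Tlr9 to endosomes, averaged 235 ± 37.7 CPM in Dicer1-deleted libraries, against 228 ± 39.6 CPM in control libraries (SD, n = 3 and 4).

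Zbp1, a sensor of left-handed nucleic acids, had 88.5, 172 and 47.3 CPM in Dicer1-deleted libraries, against 50.7, 39.1, 40.1 and 40.7 CPM in control libraries (log2 fold change 1.26 ± 0.39, SE, edgeR adjusted p = 0.353). Slc15a3, a peptide transporter of lysosomes, had 82.6, 192 and 70.4 CPM in Dicer1-deleted libraries, against 59.5, 50.2, 55.9 and 54.2 CPM in control libraries (1.07 ± 0.35, SE, edgeR adjusted p = 0.393). Both were highest in Dicer1-deleted replicate 2, the library that stood apart, and without it the log2 fold changes were 0.66 for Zbp1 and 0.47 for Slc15a3. The enzyme cGAS (Cgas) and its partner STING (Tmem173), the main route from cytosolic DNA to interferon, stood at 0.20 ± 0.24 and 0.64 ± 0.29 (SE) on the log2 scale, neither past the threshold (edgeR adjusted p = 0.996 and 0.634). They are named outside the rule for named genes. Ifi204, a DNA-binding protein of the interferon-inducible p200 family, and Hmgb1, a chromatin protein that binds bent DNA, had 0.39 ± 0.35 and -0.14 ± 0.30 (SE).

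Genes of the same human disease group as Trex1 and Samhd1 lay between -0.20 and 0.32 on the log2 scale. The 3 subunits of RNase H2, which removes ribonucleotides from DNA, had log2 fold changes of -0.20 ± 0.30 (Rnaseh2a), 0.14 ± 0.26 (Rnaseh2b) and 0.32 ± 0.51 (Rnaseh2c). Adar, an RNA editing enzyme, had 0.20 ± 0.31 and Ifih1, a sensor of double-stranded RNA, 0.28 ± 0.53 (SE). None of the 5 passed in edgeR or DESeq2 or at an unadjusted p under 0.05.

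For 12 tested genes that make or break down deoxynucleotides, the substrates of SAMHD1, the median log2 fold change was -0.10. Of these, 5 were above 0 and none passed in edgeR or DESeq2 or at an unadjusted p under 0.05. Rrm1, the large subunit of ribonucleotide reductase, had 258, 53.3 and 245 CPM in Dicer1-deleted libraries, against 178, 122, 256 and 182 CPM in control libraries. Rrm2, the small subunit, had 92.7, 17.0 and 109 CPM in Dicer1-deleted libraries, against 66.9, 66.1, 114 and 88.2 CPM in control libraries. Dck, a kinase that salvages deoxynucleosides, had 90.7, 21.8 and 82.0 CPM in Dicer1-deleted libraries. For all 3 genes Dicer1-deleted replicate 2 was the lowest of the 7 libraries. The smallest p of the list was that of Dut, which removes dUTP, at 0.74 ± 0.40 (SE, edgeR adjusted p = 0.747), while the thymidine kinases Tk1 and Tk2 were at -0.20 ± 0.32 and 0.25 ± 0.29.

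**Figure D4:**
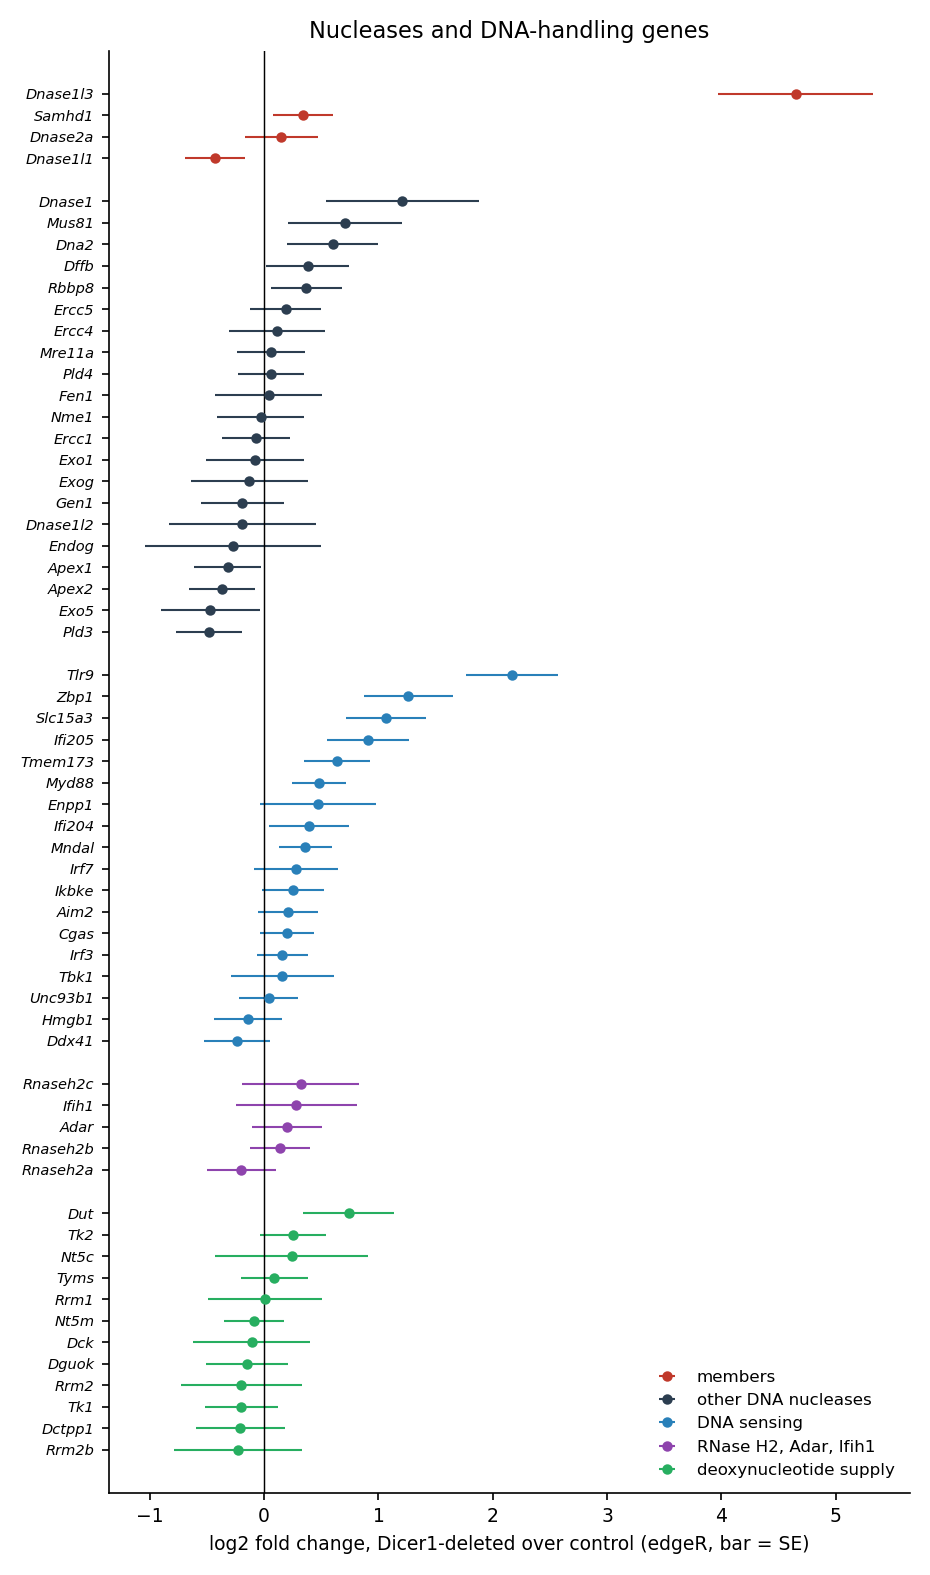
Log2 fold changes, Dicer1-deleted over control, with SE from edgeR for the 4 testable members and 4 lists of related genes. Dnase1l3 stands at 4.65, beyond all other genes drawn, of which Tlr9 is the next at 2.17, while most of the rest lie within 1 unit of 0.

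The genes whose profile came nearest to that of Dnase1l3 over the 7 libraries were found by the root-mean-square difference of centered log2 CPM values, over 8835 other genes with a mean of at least 5 CPM. Closest was Slc40a1, the iron exporter ferroportin, at a difference of 0.98, against a median of 2.66 over all these genes. Slc40a1 had 1740.4, 224 and 1265 CPM in Dicer1-deleted libraries and 50.02, 86.4, 26.3 and 189 CPM in control libraries. Dicer1-deleted replicate 2 was the lowest of its group and control replicates 4 and 3 were the highest and lowest of theirs for Slc40a1, as for Dnase1l3. The next were Spic (1.29), the transcription factor of iron-recycling macrophages in the red pulp of the spleen, and Treml4 (1.30), a receptor of myeloid cells. Spic had 209, 223 and 99.6 CPM in Dicer1-deleted libraries and 17.5, 30.1, 9.04 and 83.2 CPM in control libraries. Treml4 had 214, 261 and 120.1 CPM in Dicer1-deleted libraries and 17.9, 37.6, 10.7 and 17.8 CPM in control libraries.

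The other 7 of the 10 nearest were the protease inhibitors Serpina3g (1.38) and Serpina3f (1.48), the calcium homeostasis modulator Calhm6 (1.39), the receptor Cd300e (1.47), the chemokine Cxcl9 (1.48), the adhesion molecule Pecam1 (1.51) and the guanylate-binding protein Gbp8 (1.62). Serpina3g and Serpina3f are close copies and can share reads. Large differences between groups dominate this measure, so it was repeated after centering within each group. Then Cadm1 (0.29), an adhesion molecule, Gbp2 (0.36), Cd207 (0.37), the lectin langerin, F11r (0.39), a tight junction protein, and Gbp4 (0.40) were nearest, against a median of 0.96. These 5 followed Dnase1l3 within groups but not between them alike, with log2 fold changes of 0.89 for Cadm1, 1.10 for Gbp2, -1.82 for Cd207, 0.35 for F11r and 1.72 for Gbp4. Genes near Dnase1l3 over all libraries differ between groups by the way they were found, so their differences are a description. Similarity over 7 libraries of 2 groups is a description.

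**Figure D5:**
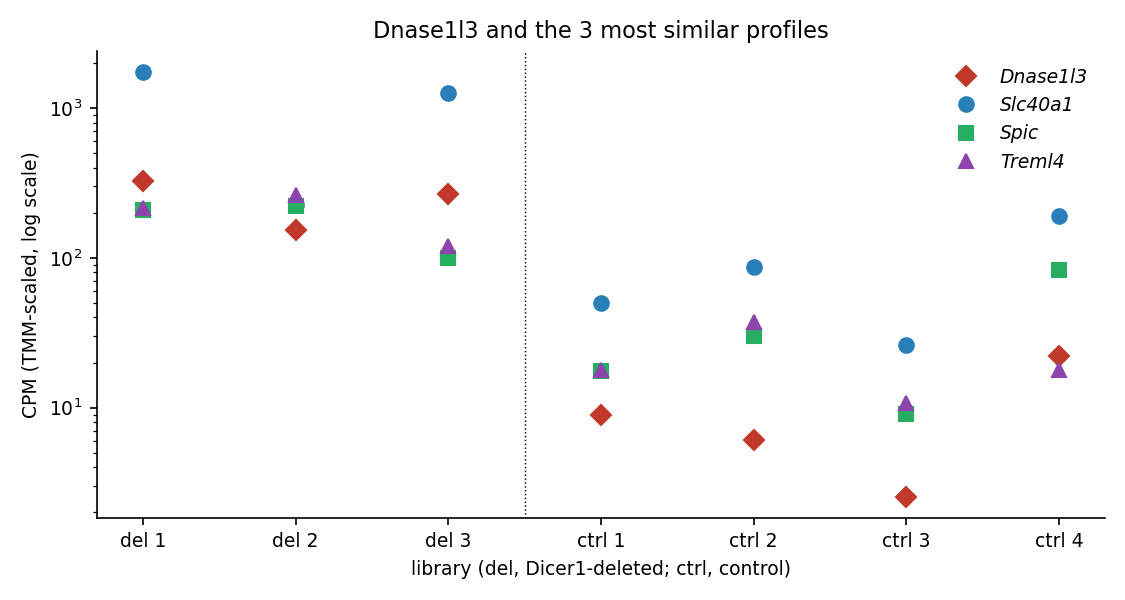
CPM (log axis) of Dnase1l3, Slc40a1, Spic and Treml4 in each library, Dicer1-deleted left of the dotted line and control right of it. For all 4 genes the lowest Dicer1-deleted library lies above the highest control library, and control replicate 3 is the lowest library for each of them. The Slc40a1 point of Dicer1-deleted replicate 2 (224 CPM) lies behind that of Spic (223 CPM).

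Markers of cells that could express Dnase1l3 or enter the gate differed between groups in part. Of 7 markers of red pulp macrophages, a list that holds Slc40a1, Spic and Treml4, 6 were above 0, the median log2 fold change was 1.53, and none passed in edgeR. The 3 that rose in DESeq2 (0.777% of all genes did) were Slc40a1, Spic and Treml4, named already for their likeness to Dnase1l3, so they are no separate evidence. The summed level of all 7 markers was 4307 to 7184 CPM in Dicer1-deleted libraries, against 854 to 4091 CPM in control libraries. Hmox1, which degrades heme, gave most of that sum with means of 4305 CPM in Dicer1-deleted libraries, against 2231 CPM in control libraries. Cd163, the scavenger receptor for hemoglobin, pointed the other way, with a log2 fold change of -1.54 that did not pass.

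The 12 markers of conventional dendritic cells, cells known to express Dnase1l3, summed to 130.3 to 305 CPM in Dicer1-deleted libraries, against 126 to 374 CPM in control libraries. Naaa gave most of the sum in Dicer1-deleted libraries, at 267, 102 and 193 CPM, against 51.7, 54.9, 162 and 197 CPM in control libraries. The sum therefore mostly follows Naaa there and is no measure of these cells. The median log2 fold change of the 12 markers was -0.03, with 6 above and 6 below 0. Flt3 and Zbtb46, which define these cells, averaged 0.185 and 0.957 CPM in Dicer1-deleted libraries and 0.586 and 1.82 CPM in control libraries. Xcr1, Clec9a and Batf3, of the type 1 subset, were low and higher without overlap in Dicer1-deleted libraries, with log2 fold changes of 2.40 ± 0.50, 2.00 ± 0.78 and 1.91 ± 0.50 (SE). Of the 12 markers these 3 were higher without overlap, against 3.86% of all genes tested. Itgae, a further marker of type 1 cells, overlapped between groups, at 0.128 to 0.83 CPM in Dicer1-deleted libraries, against 0.314 to 0.51 CPM in control libraries. Xcr1 averaged 4.47 CPM in Dicer1-deleted libraries, against 0.849 CPM in control libraries. None of the 3 passed in edgeR (adjusted p = 0.156, 0.511 and 0.254), while Xcr1 and Batf3 rose in DESeq2, as did 0.777% of all genes. Ccr7, a receptor of migrating dendritic cells, pointed the other way, at 0.427 to 1.47 CPM in Dicer1-deleted libraries, against 1.62 to 25.2 CPM in control libraries. It was lower without overlap, as were 5.44% of all genes tested. It fell in DESeq2 (adjusted p = 0.00917), as did 1.41% of all genes, but not in edgeR (adjusted p = 0.345). Cd209a and Clec10a, lectins of the type 2 subset and of some macrophages, had log2 fold changes of -3.86 and -1.32 and passed in neither. Plasmacytoid dendritic cell markers summed to 67.4 to 103 CPM in Dicer1-deleted libraries, against 141 to 177 CPM in control libraries, nearly all of it Tcf4, and Siglech averaged 0.236 CPM in Dicer1-deleted libraries, against 0.142 CPM in control libraries.

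Markers of B cells summed to 112 to 152 CPM in Dicer1-deleted libraries, against 35.1 to 71.4 CPM in control libraries, and those of neutrophils to 156 to 233 CPM in Dicer1-deleted libraries, against 63.4 to 139 CPM in control libraries. For T and NK cells the sums were 8.94 to 18.6 CPM in Dicer1-deleted libraries, against 6.27 to 9.27 CPM in control libraries. Endothelial markers summed to 39.4 to 72.3 CPM in Dicer1-deleted libraries, against 3.95 to 16.9 CPM in control libraries, most of it Pecam1, while Cldn5 was not listed. Pecam1 was named already for its likeness to Dnase1l3, so it is no separate evidence. Cdh5 and Kdr overlapped between groups, with means of 0.68 and 2.21 CPM in Dicer1-deleted libraries, against 0.323 and 1.74 CPM in control libraries. Stab2, a marker of sinusoidal endothelium, averaged 0.0692 CPM in Dicer1-deleted libraries, against 0.122 CPM in control libraries. Monocyte markers summed to 793 to 1579 CPM in Dicer1-deleted libraries, against 845 to 2514 CPM in control libraries. Fibroblast markers (19.98 to 29.3 CPM in Dicer1-deleted libraries, against 16.3 to 33.7 CPM in control libraries) and epithelial markers (5.59 to 9.09 CPM in Dicer1-deleted libraries, against 1.75 to 13.2 CPM in control libraries) overlapped between groups. The part of any of these cells in the difference of Dnase1l3 was not tested.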

How the data were processed

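RNA of sorted F4/80+ tumor macrophages was amplified with the SMARTer ultra low kit and made into Nextera XT libraries, which keep no strand, per the labels' protocols. The submitters' processing notes name Bowtie2. For its version, the genome build, the annotation and the counting tool, the sources used here give nothing. Per the file headers, the deposited tables hold counts of uniquely placed reads, expected counts that add fractions of reads shared between genes, and RPKM by the authors, whose lengths are not stated. All unique counts were even, because both mates were counted. Without molecular identifiers reads are not independent molecules.

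The 31124 unlisted values were set to 0. Symbols and positions came from GENCODE mouse release 21 (GRCm38), which matched 21828 of 24084 IDs; lengths implied by the RPKM values were close to its exon lengths for the members with reads, but not for Atrip. Unique counts were fitted in edgeR 4.0.16 (R 4.3.3) with filterByExpr, TMM and the quasi-likelihood test, with Benjamini-Hochberg adjusted p over 16226 genes at 0.05. CPM values are TMM-scaled and fold changes are Dicer1-deleted over control. The workflow was tested on simulated data. Alternatives were DESeq2 1.42.0, limma-voom (limma 3.58.1), other scaling, filters and counts, the L code as covariate and leaving out each library. Named genes were the members and, from each list, the 3 most abundant and the 3 with the smallest p. The nearest profiles (log2 CPM with 1 read added) were named too. Others are markers or are marked as outside this rule, except for a few. These are Dicer1, Dnase1l2 of the DNase I family, Atrip, Mast1 and Taz, which overlap a member, and Dnase2b and Trex2, without reads. Members, lists and tests were chosen with earlier results of these data known.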

Additional observations from a re-analysis of the deposited data

Results flagged for a closer look

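Control replicate 1 lay far from the other control libraries for Zbp1, at 50.7 CPM against 39.1 to 40.7 CPM, where its gap to the nearest library exceeded Dixon's 95% critical value for 4 samples. It was the 1 gene past that value among 41 named genes examined, and chance alone puts about 1 in 20 groups there. The group of 3 Dicer1-deleted libraries is too small for this check.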

How the results depend on the processing

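The log2 fold change of Dnase1l3 lay between 4.63 and 5.02 over the other fits and between 4.33 and 5.41 with 1 library left out. Over the same fits and with 1 library left out, those of Dnase1l1 lay from -0.52 to -0.41 and from -0.55 to -0.33, and those of Samhd1 from 0.30 to 0.47 and from 0.15 to 0.46. Neither Dnase1l1 nor Samhd1 passed the threshold in any of them. Dnase2a lay from 0.06 to 0.19, and from -0.23 to 0.42 with 1 library left out, the negative value coming without Dicer1-deleted replicate 2. The count of genes called over all genes was 4, against 397 in DESeq2, 403 in DESeq2 on expected counts with Atrip and Trex1 summed, 2 in limma-voom, 42 with no filter, 1 with the 10 CPM filter and 0 with the L code as covariate, and it was 0 to 3 with 1 library left out. The cause was not tested. Among DNA sensing genes 1 was called in DESeq2 and 1 in DESeq2 on expected counts, against 0 in edgeR, and the range with 1 library left out was 0 to 0. In every fit the other 3 lists had 0 calls. Trex1 could be fitted under no setting. The spread between libraries, a biological coefficient of variation of 45.1%, limits these comparisons. No paired analysis was possible because the labels give no replicate numbers shared between the groups.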
